A study of Acrobeloides nanus with 194 samples.

Results

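The 100 transcripts described here are the most abundant of those whose average level stayed near constant from the first cleavages to the comma stage in the embryo of Acrobeloides nanus, a free-living nematode that reproduces without males. They are 100 of the 16853 rows of a table of transcript counts from hand-separated blastomeres and pieces of embryos. Libraries with a total of 10000 counts or more were used, of which there were 150, and 44 were smaller. Each count was scaled to a common library total (counts per 1000000, CPM), and log2(CPM + 50) was averaged over the libraries of 4 stage bins. A row was taken when its highest bin mean exceeded its lowest by less than 0.5 on that log2 scale, a difference called its span. The 100 such rows with the highest mean CPM over the 150 libraries are called the members. The bin means and the mean CPM chose the members, so both are given below as a description, with no test. The files pair no row with a gene name, so each row is called by its place in the table (row 1 is the first), and no row can be said to encode a known protein.

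Transcripts that every cell needs throughout development are often called housekeeping transcripts. In animal cells the most abundant of them encode ribosomal proteins, translation factors, parts of the cytoskeleton and enzymes of energy metabolism. In a nematode embryo the first divisions run on transcripts that the mother placed in the egg, and the embryo's own transcription takes over later, so a transcript can keep its share of the total by persistence, by replacement or by both. A share of counts does not tell these apart, nor does it tell less RNA per cell from fewer cells in a piece.

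Every library held 1 blastomere or a small cluster of cells, frozen singly after the eggshell was removed, and was made with CEL-Seq2, which tags the 3′ end of each transcript. A CPM value is therefore a level per transcript and was not divided by length. No treatment, mutant or strain was compared: the groups are the stages and the cells or pieces within them, named as in the sample titles. The first bin held 45 libraries, of 1-cell (3), 2-cell (14), 3-cell (16) and 4-cell (12) embryos. The second held 33, of 5-cell (7), 6-cell (4), 13-cell (13), 15-cell (5) and 16-cell (4) embryos. The third held 36, titled E2 (11), E4 (14) and E8 (11), and the fourth held 32, titled VE (8), Comma (16) and LE (8). Some libraries titled Comma or VE carry the stage label gastrula, and their titles were used throughout. A further 4 libraries titled E belonged to no bin and entered the mean CPM alone. Cells within a stage carry lineage names: AB and P1 are the daughters of the zygote P0, EMS and P2 those of P1, and C and P3 those of P2, and the germline descends from the P cells. Rows without names leave the labelled cells unchecked against marker genes. Cells of different names, and pieces of the later stages, can come from the same embryo, and no label names the embryo, so the p-values below measure the spread between cells or pieces.

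Library totals ran from 10179 to 1217040 counts, with a median of 47011. The median totals of the bins, early to late, were 96628, 31301, 27331.5 and 59904.5 counts, so depth differed between the bins. The members together held a median of 8.93% of a library's counts (3.93% to 29.8%). By bin, early to late, their median shares were 8.26%, 9.82%, 8.73% and 9.27%.

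A small span by this rule was common in the table, mostly in rows of low level. A span under 0.5 was found in 15241 rows (90.4%), of which 12104 had a mean below the 50 CPM added before taking logs, where a span is small by construction. At or above the level of the lowest member (345.08 CPM) there were 292 rows: the 100 members (34.2%) and the others, with a larger span, called the changing rows. Spans of the changing rows ran from 0.502 to 3.63 with a median of 0.70. Their name refers to the span alone and not to a test. The members' spans had a lowest value of 0.10 and a median of 0.38. A span under 0.2 was seen in 7 members and one under 0.3 in 28. The late bin was the highest for 50 members, the early bin for 30, E2 to E8 for 11 and 5 to 16 cells for 9. The late and early bins also had the larger median library totals, and the part of depth in these counts was not tested. No such count was made over the changing rows.

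Rows just inside and just outside the limits had similar values. The members with the largest spans were row 11160 (0.494, mean 852.7 CPM), row 3484 (0.494, mean 698.04 CPM) and row 1954 (0.488, mean 404.07 CPM). The rows of this level that missed by least were row 9599 (0.502, mean 586.5 CPM), row 7181 (0.506, mean 757.5 CPM) and row 1775 (0.509, mean 367.7 CPM). The last member by level was row 10187 (345.08 CPM, span 0.338), and the next row with a small enough span was row 14333 (344.26 CPM, span 0.257).

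Among the 10 most abundant members the level of a bin moved little against the spread of its libraries. Row 9487, the highest, averaged 7326 ± 6510 CPM in the early bin, 8606 ± 5002 CPM at 5 to 16 cells, 9676 ± 8172 CPM at E2 to E8 and 8089 ± 3750 CPM in the late bin (SD, n = 45, 33, 36 and 32 libraries). Its 150 libraries ran from 824.1 to 46391 CPM with a median of 6859 CPM, and it was detected in every one. The 4 bins thus overlapped over most of that range. The lowest value came from the deepest library, 1-cell P0 replicate 2 (1217040 counts), at a count of 1003. That is near 1024, the highest count of any row, so this level may be understated, to an extent that was not tested.

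Row 9219, the next, averaged 4264 ± 3188, 6143 ± 5965, 5635 ± 3709 and 4536 ± 1840 CPM in the same 4 bins (SD). Row 6226 averaged 4135 ± 2787, 5097 ± 5696, 4680 ± 2482 and 5031 ± 1959 CPM (SD). Row 9652 averaged 3933 ± 2149, 4140 ± 2770, 4408 ± 3078 and 5019 ± 1828 CPM (SD), and is the only one of these 4 rows whose bin means rise in order. For all 4 rows the SD within a bin exceeded the difference between the highest and the lowest bin mean, except for row 9219, whose late bin spread less than that, its highest mean being at 5 to 16 cells.

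The members ranked 5 to 10 by mean CPM were rows 16409 (2966 CPM), 13784 (2864 CPM), 3625 (2493 CPM), 16103 (1998 CPM), 16755 (1976 CPM) and 1731 (1919 CPM). Row 16103 had a span of 0.10, the smallest of these 10. Its bin means were 2050 ± 1489, 1946 ± 1132, 1967 ± 1336 and 2078 ± 2014 CPM (SD), with a range over the 150 libraries of 441.8 to 12431 CPM. Row 3625 averaged 2702 ± 1077, 2206 ± 1202, 2563 ± 1558 and 2285 ± 1318 CPM (SD) and had the smallest spread between libraries of the 10. Row 13784 had a span of 0.18 and means of 2643 ± 2020, 3361 ± 3573, 2745 ± 1917 and 2890 ± 1820 CPM (SD). Below the first 10 the levels fell away: the median member averaged 531 CPM, and 77 members had a median of 200 CPM or more.

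**Figure D1:**
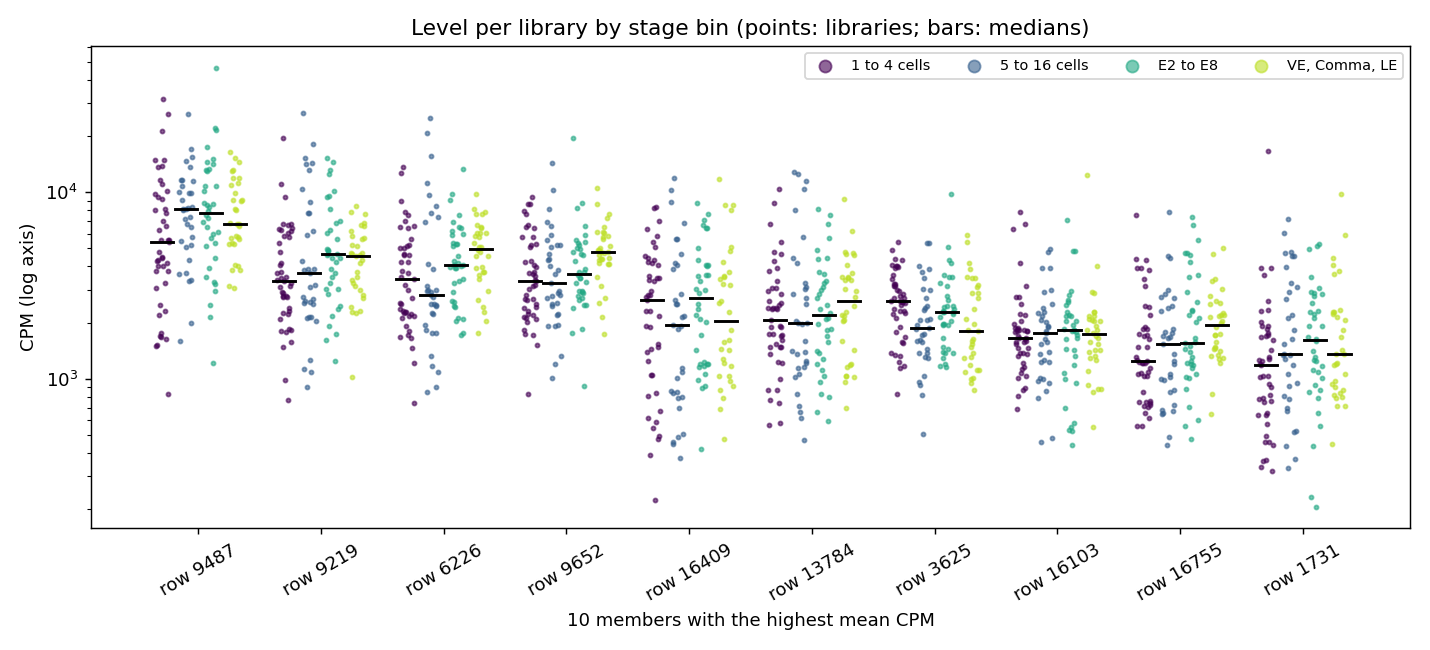
CPM on a log axis in each library of the 4 stage bins (points) for the 10 members with the highest mean CPM, with the median of each bin as a black bar. Medians of a row lie close together while its libraries spread widely: row 9487 runs from 824.1 to 46391 CPM. Its lowest value is from the deepest library, at a count of 1003, near the highest count of any row (1024).

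A constant average did not mean a constant level in each library. The SD of log2(CPM + 50) around the bin means had a median of 1.03 over the members and ran from 0.57 to 2.37. For the changing rows the SD had a median of 1.34. The members' smaller spread was not tested, since the bins they were chosen by use the same values.

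The steadiest member was row 16016. It averaged 502 ± 221, 534 ± 205, 490 ± 230 and 570 ± 262 CPM in the 4 bins, early to late (SD), and its 150 libraries ran from 119.2 to 1471 CPM with a median of 501.6 CPM. Its SD was 0.57. The next were row 14059 (SD 0.63, mean 346 CPM, missed in 1 library) and row 1831 (SD 0.65, mean 678 CPM, 152.98 to 1657 CPM). In these 3 rows no library stood far above the rest.

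A member seen in all 150 libraries with an SD under 1 is called steady here, a limit set after the values were seen. There were 30 steady members, and 34 of the changing rows (17.7%) met the same limit. Detection in every library held for 36 members and for 55 changing rows (28.6%). The members with the largest SD were row 11831 (2.37), row 11832 (2.15) and row 11100 (2.00), which belong to the group of rows described next.

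**Figure D2:**
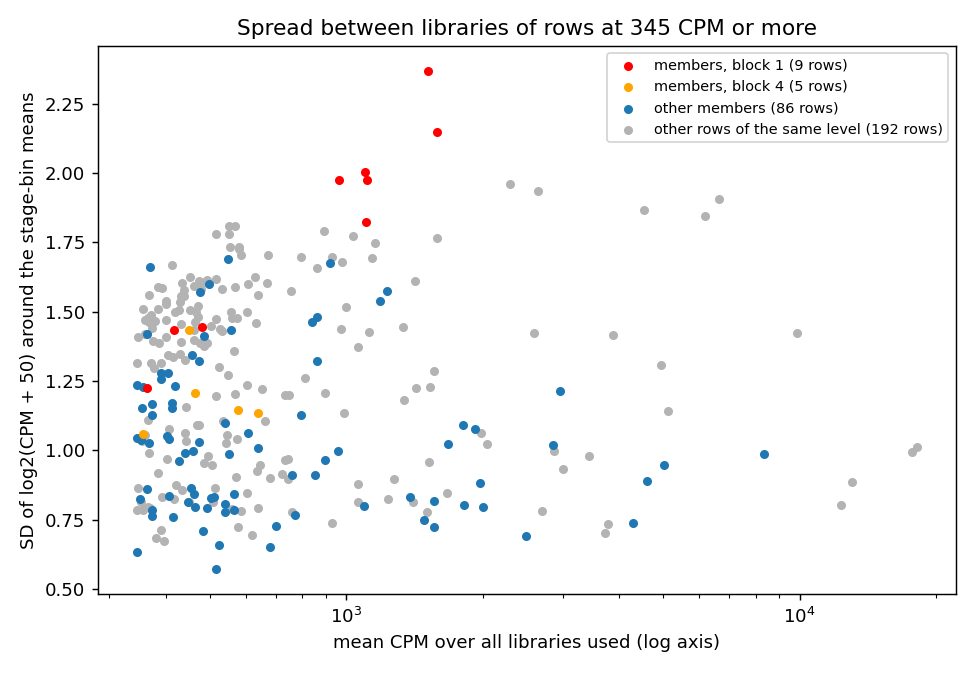
SD of log2(CPM + 50) around the stage-bin means against mean CPM (log axis) for the 292 rows at or above the lowest member. The 9 rows of the first block (red) lie at 1.22 to 2.37 and hold the 3 largest values of the members, the 5 rows of the fourth block (orange) at 1.06 to 1.43, and the other members reach down to 0.57.

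Members were grouped by how alike their deviations from their bin means were, over the libraries of the stage bins alone. The deviations were taken on log2(CPM + 50). Average linkage on their Pearson correlation was used, joined down to 0.5, with at least 5 rows to a group. The grouping was made on the values described, so it carries no test, and all rows share the depth and make-up of each library. It gave 5 blocks holding 30 members, while 70 members fell in no block. The median correlation of all pairs of members was 0.01, so most members did not vary together around their bin means.

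The first block held 9 rows: 11832, 11831, 14451, 5592, 11100, 9038, 13919, 13705 and 15804. Their pairwise correlations were 0.69 to 0.95. Together they took a median of 0.108% of a library's counts, but 20.4% in replicate 5, 15.1% in replicate 11 and 11.4% in replicate 1 of the E2 libraries whose titles name no cell. They took 10.2% in replicate 2 of 5-cell P4, 8.94% in replicate 2 of 3-cell AB and 6.42% in the library titled with E as both stage and cell. They took 5.85% in Comma anterior replicate 5, 5.55% in 4-cell AB replicate 2 and 5.46% in Comma middle replicate 3. These 9 libraries are of different stages and cells, and other libraries of the same cells were lower. The remaining 3-cell AB libraries held 0.0668% to 0.373% and the remaining Comma anterior libraries 0.0939% to 1.08%. Some of the others still lay well above the median: 5-cell P4 replicate 3 held 2.72%, Comma middle replicate 4 1.71% and 4-cell AB replicate 4 1.69%.

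Single rows of that block show the same split. Row 11831 had 36032 CPM in replicate 5 of the E2 libraries without a cell name, 16936 CPM in replicate 2 of 5-cell P4 and 13647 CPM in replicate 2 of 3-cell AB, and its median over the 150 libraries was 67.5 CPM. Its neighbour in the table, row 11832, had 36032, 17026 and 13559 CPM in the same 3 libraries and a median of 144.6 CPM. Row 5592 reached 26969 CPM with a median of 185.4 CPM. The means of these rows, which made them members, rest on the few high libraries, and a block share of 1% or more was seen in 21 libraries (5, 6, 5 and 4 in the 4 bins, early to late). The word constant therefore describes the bin means of these 9 rows and not their libraries. Without the block the members held a median of 8.38% of counts (3.56% to 18.8%), and by bin, early to late, 7.82%, 8.48%, 8.56% and 8.83%. Chosen again without the 9 libraries that had 4% or more in the block, 77 of the 100 rows remained members, an alternative added after the values were seen.

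The fourth block held 5 rows (6359, 4003, 14209, 5259 and 4684) that were high in 4 libraries. They took 11.4% of counts in replicate 2 of the libraries titled E that name no cell, 9.53% in replicate 13 of the 15-cell libraries without a cell name, 3.40% in 4-cell EMS replicate 5 and 2.33% in VE middle replicate 1. In all 150 libraries their median share was 0.0588%, and the fifth highest was 0.390%. Row 14209 had 24276, 18708, 7632 and 4675 CPM in those 4 libraries, against a median of 76.01 CPM. Row 4684 took 42.4% of its summed CPM from the first of these libraries alone.

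**Figure D3:**
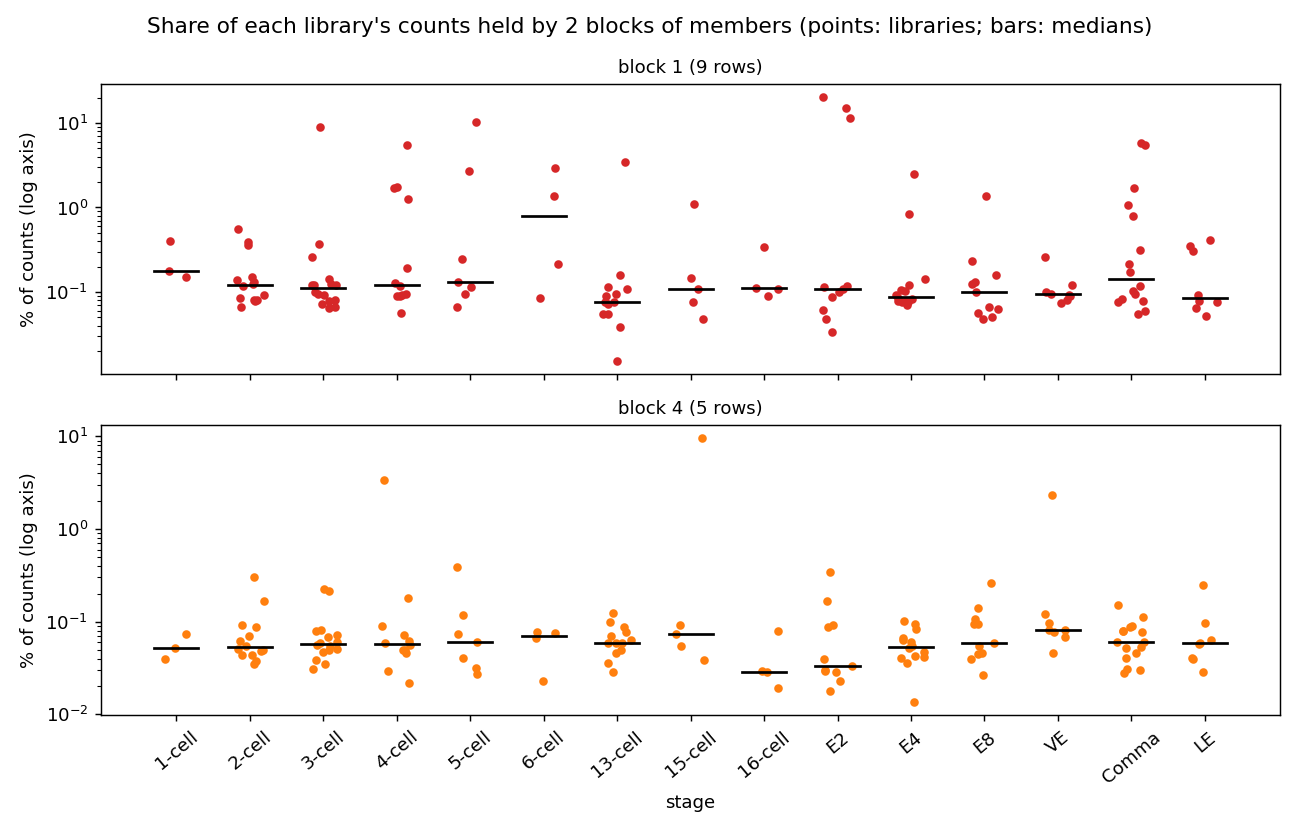
Percent of each library's counts (log axis) held by the first block of 9 members (top) and the fourth block of 5 members (bottom), by stage; points are libraries and bars are stage medians. The high points lie in single libraries: up to 20.4% at E2 for the first block and, among the stages plotted, 9.53% at 15 cells for the fourth (the libraries titled E, with 11.4% in one, are not plotted), over medians of 0.108% and 0.0588% in all 150 libraries.

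The second block (rows 9219, 6226, 13784, 15989, 3686 and 11257) holds 3 of the 10 most abundant members. A row of it was missed in at most 3 libraries, and its share was highest in replicate 1 of 13-cell MS (8.07%), 13-cell E (6.09%), 3-cell P2 (5.85%) and 13-cell E+P4 (5.70%). The third block (rows 3702, 12213, 875, 16110 and 881) had rows that were missed in 9 to 19 libraries each. The deviations of its rows from their bin means correlated with log10 of the library total at 0.39 to 0.46, over the libraries of the stage bins. The levels of these rows over the 150 libraries correlated at 0.83 to 0.91 with the first principal component of 785 non-member rows. That component held 26.5% of the variance of the 785 rows. For all members the correlation with that component ran from −0.55 to 0.91 with a median of −0.12, and 5 of the 6 members above 0.5 were the rows of the third block. The fifth block (rows 7332, 12303, 8294, 16051 and 12082) had median levels of 211.8 to 455.3 CPM.

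Single libraries also carried rows outside the blocks. Row 14382 had 23869 CPM in 3-cell P2 replicate 1, 16818 CPM in 13-cell MS replicate 1 and 15145 CPM in the 13-cell library titled c, against a median of 53.8 CPM. Row 10187, the lowest member, had 13591 CPM in 1-cell P0 replicate 1 and a median of 91.5 CPM, and row 12501 had 13382 CPM in 13-cell D4 replicate 1 and a median of 145.1 CPM. In all, 10 members drew 20% or more of their summed CPM from 1 library, against 1 of the changing rows. A median below 0.25 of the mean was seen in 12 members and in 12 changing rows (6.25%). Ranked by median CPM in place of the mean, an alternative added after the values were seen, 71 of the 100 rows were chosen again.

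**Figure D4:**
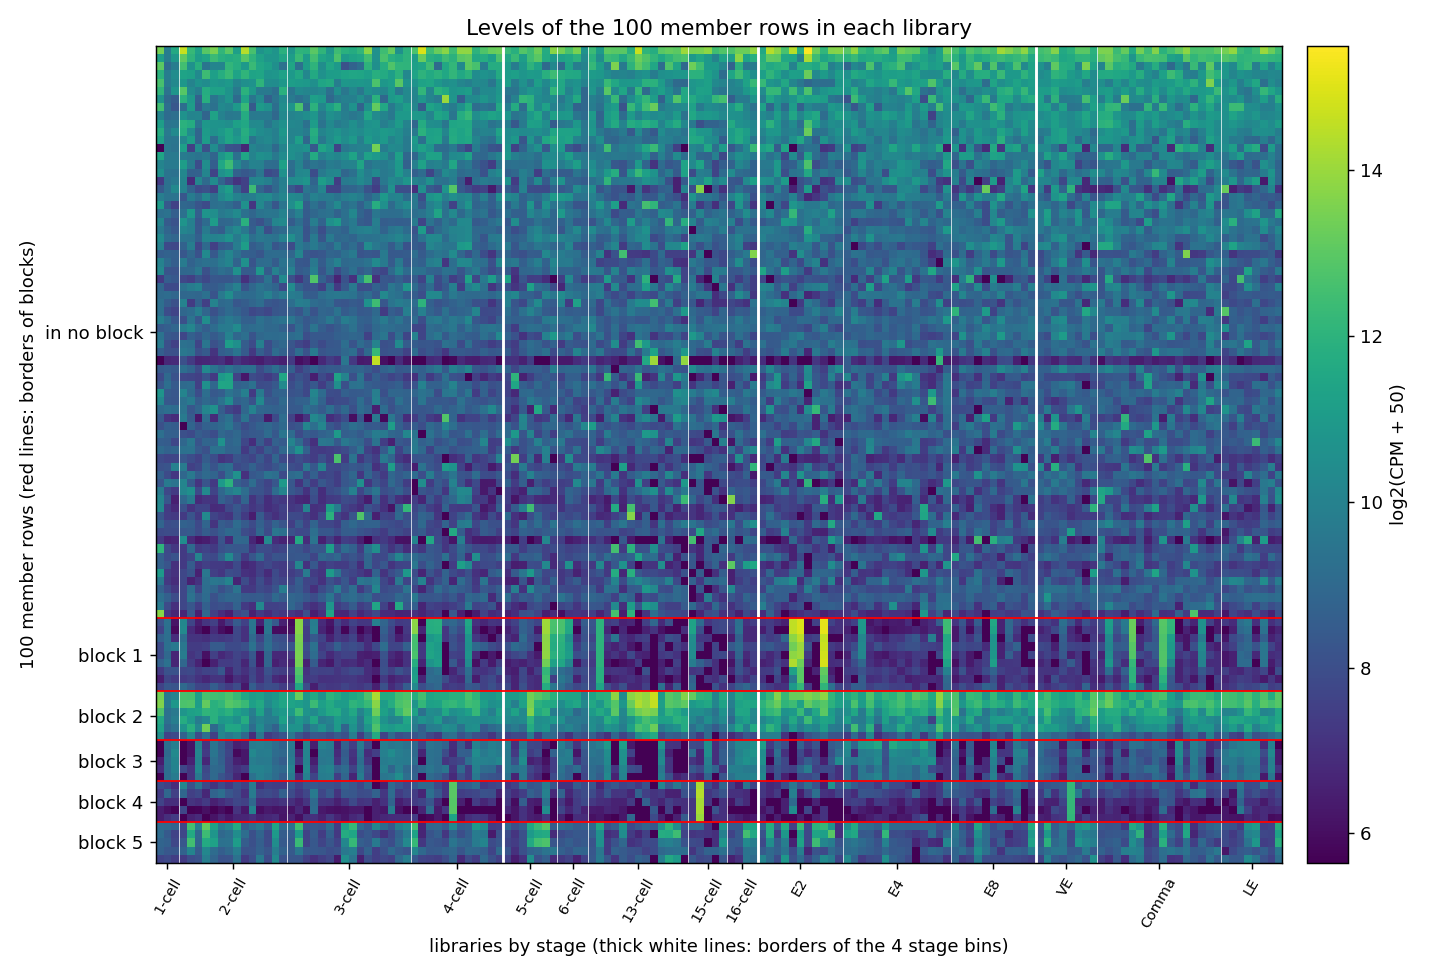
Level of each member (log2(CPM + 50), colour) in the libraries of the 4 bins, ordered by stage from left to right; rows are grouped as in no block (70 rows) and blocks 1 to 5. Rows vary from library to library (median SD 1.03 around the bin means), and block 1 shows isolated bright columns, such as the 3 E2 libraries at 11.4% to 20.4% of counts.

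Depth moved with the level of the most abundant members. Row 9487 had a median of 10112.5 CPM in the 54 libraries of 10000 to 30000 counts, 7542 CPM in the 56 of 30000 to 100000 and 3925 CPM in the 40 of 100000 or more. Row 9219 had 4431, 4713 and 2821 CPM and row 9652 had 4504, 4052 and 2819 CPM in the same 3 classes. The members' share of counts had medians of 9.86%, 9.13% and 7.74%. The deepest class was thus the lowest for each of these. Single members went both ways. The correlation of a member's deviations from its bin means with log10 of the library total had a median of 0.01 (−0.61 to 0.46). It was negative for 49 of the 100 members, under −0.3 for 8 and over 0.3 for 5.

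The counts of these rows stopped near a common height. The highest value in the table was 1024, which 22 values reached, 5 of them in the members (rows 11831, 11832 and 14451). The highest count of row 9487 was 840, 948 and 1003 in the 3 depth classes. A count of 900 or more was reached by 27 members and 28 changing rows, and 62 such member values came from 20 libraries. Whether reads were collapsed by molecular identifier, and how many identifiers there were, is not given in the sources used here, so the levels of the most abundant members in deep libraries may be understated, to an extent that was not tested. With counts corrected for repeated identifiers, taking 1024 as their number, 93 members kept a span under 0.5 and 82 were chosen again. Rows 6226 and 9652 had corrected spans of 0.56 and 0.58 and would have left the list, and row 9487 had 0.36.

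**Figure D5:**
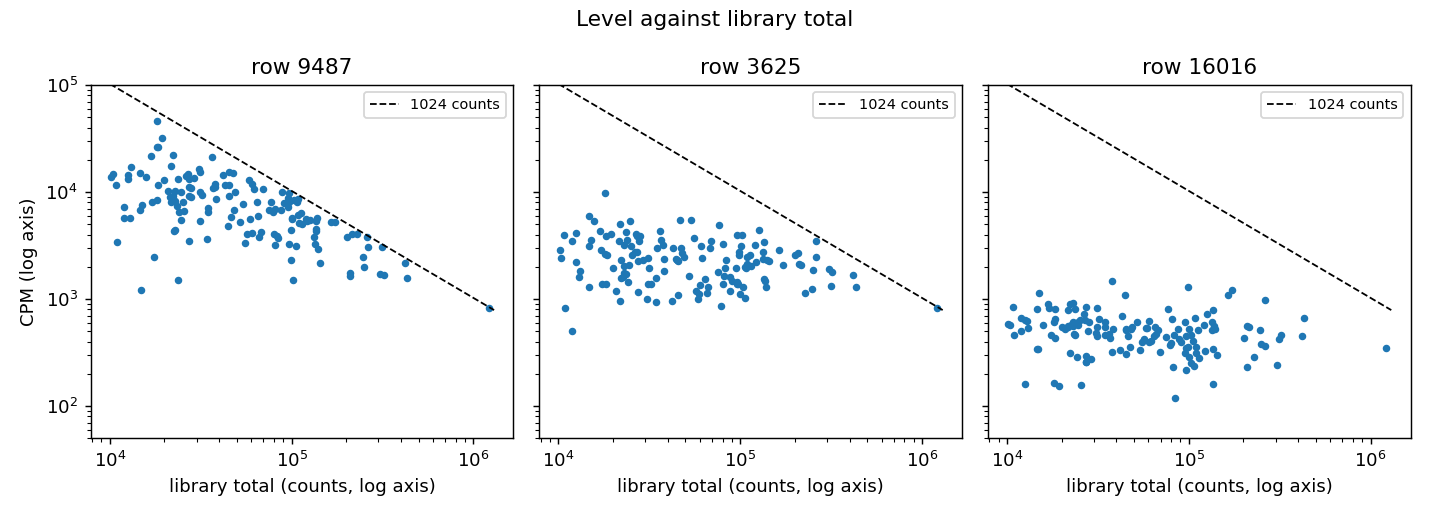
CPM against library total (both log axes, points are the libraries of the 4 bins) for row 9487, row 3625 and row 16016; the dashed line marks a count of 1024. Row 9487 comes down along the dashed line in libraries above 100000 counts, where its median was 3925 CPM, while row 16016 stays level at 119.2 to 1471 CPM.

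Levels by single stage are given as a description, since a range over 15 small groups is wider by construction than one over the 4 bins that the rule used. Over the 15 stages the span of the members' stage means of log2(CPM + 50) had a median of 1.599 (0.76 to 3.68), and 7 members stayed under 1. For the changing rows the median was 2.24, and 1 row stayed under 1. The 15-cell stage, with 5 libraries and a median total of 11928 counts, was the lowest for 28 members and the highest for 12. The 13-cell and 16-cell stages were also the highest for 12 members each, and no stage was so for more. Such counts were not made over the changing rows. Stage means rest on 3 to 16 libraries each, so part of this range is the spread shown above.

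By stage, row 16016 had the narrowest range: its medians were 346.7 CPM at 1 cell, 513.9 at 2 cells, 426.7 at 3 and 546.4 at 4 cells. They were 469.7 CPM at 5 cells, 562.1 at 6, 550.6 at 13, 617.8 at 15 and 536.1 at 16 cells. At E2, E4 and E8 they were 314.7, 377.1 and 638.3 CPM, and at VE, Comma and LE 558.5, 508.8 and 452.2 CPM. Row 11345 had the widest range. Its median was 2518 CPM in the 4 libraries of the 16-cell stage, and its other stage medians lay between 97.1 and 244.0 CPM.

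Whether the members were as even between the cells of a stage, a contrast that the bins average over, was tested with edgeR's quasi-likelihood test over all rows that passed its filter on low counts, with Benjamini-Hochberg adjustment and a threshold of 0.05. In P1 against AB of the 2-cell stage (7 libraries each), 0 of 93 members tested were called, and 0 of all 1536 rows (0%). At an unadjusted p under 0.05 there were 3 members (3.23%), beside 6.12% of all rows tested, and DESeq2 called 0 members and 1 row. The median log2 fold change was −0.25 over the members and 0.06 over all rows tested. P1 libraries had a median total of 209328 counts and AB libraries one of 53794, and the deeper libraries had lower levels of the leading members over the whole series. The part of depth in this shift was not tested.

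The member with the smallest p was row 9975. It had 50.4, 88.8, 102.8, 153.02, 192.6, 193.2 and 205.4 CPM in P1, against 44.97, 84.8, 162.6, 557.7, 647.3, 708.2 and 1041 CPM in AB. The 4 highest AB libraries lay above every P1 library and the others overlapped with P1. The log2 fold change was −1.80 ± 0.64 (SE; edgeR adjusted p = 0.659). Row 9219 had 1475 to 4762 CPM in P1 with a median of 2303, and 2254 to 6634 CPM in AB with a median of 6183. Its log2 fold change was −1.15 ± 0.48 (SE; edgeR adjusted p = 0.667).

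Among 3-cell embryos, 98 members were tested in P2 (5 libraries) and in EMS (4) against the same 7 AB libraries. In P2 against AB, 0 members were called, beside 6 of 3097 rows (0.194%), with 13 members (13.3%) and 16.7% of all rows at an unadjusted p under 0.05. DESeq2 called 0 members there and 60 of all rows. In EMS against AB, 0 members were called, beside 2 of 3097 rows (0.0646%), with 14 members (14.3%) and 5.84% of all rows at an unadjusted p under 0.05. DESeq2 called 0 members there and 5 of all rows. Median log2 fold changes were 0.03 for the members and −0.12 for all rows in P2, and −0.27 and −0.15 in EMS.

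Row 14382 had 23869, 68.5, 17.5, 16.6 and 0 CPM in P2, against 0 to 119.3 CPM in AB with a median of 58.8 CPM. A single P2 library was high, and the others lay within the AB range. The log2 fold change was 6.31 ± 1.61 (SE; edgeR adjusted p = 0.0761) and −1.26 without that library. In EMS, row 11831 had 0, 4.97, 34.3 and 89.7 CPM, against 14.3 to 13647 CPM in AB with a median of 106.3 CPM. Here it was 1 AB library of the first block that was high, and the log2 fold change was −6.64 ± 2.17 (SE; edgeR adjusted p = 0.711) and −2.20 without AB replicate 2.

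In P3 (4 libraries) against AB (3) of the 4-cell stage, 0 of 88 members and 0 of 673 rows (0%) were called. There were 3 members (3.41%) at an unadjusted p under 0.05, beside 9.36% of all rows, and DESeq2 called 0 members and 1 row. Row 879 had 149.3, 316.3, 434.4 and 830.4 CPM in P3, against 1605, 1691 and 2477 CPM in AB. The groups did not overlap, and the log2 fold change was −2.16 ± 0.80 (SE; edgeR adjusted p = 0.520).

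Pieces of the Comma stage were compared along the body. In anterior (6 libraries) against posterior pieces (5), 0 of 92 members and 0 of 703 rows (0%) were called, with 7 members (7.61%) and 8.11% of all rows at an unadjusted p under 0.05, and DESeq2 called 0 of either. In middle pieces (5) against the mean of both ends, 0 of 92 members and 0 of 703 rows (0%) were called, with 5 members (5.43%) and 11.4% of all rows at an unadjusted p under 0.05, and DESeq2 called 0 members and 4 rows. The median log2 fold change of the members was 0.08 in the first and −0.08 in the second, against 0.04 and −0.02 over all rows.

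Row 16103 had the smallest p between the ends. It had 845.9 to 2167 CPM in anterior pieces with a median of 1432 CPM, and 1648, 2062, 2265, 4042 and 12431 CPM in posterior pieces. The 4 lowest anterior pieces lay below every posterior one, and 1 posterior piece stood apart (log2 fold change −1.52 ± 0.50, SE; edgeR adjusted p = 0.532; −0.77 without posterior replicate 5). Row 15282 had 7151, 554.0, 193.1, 92.8 and 85.6 CPM in middle pieces, against 35.6 to 407.6 CPM at the ends with a median of 226.0 CPM. The log2 fold change of 3.38 ± 0.86 (SE; edgeR adjusted p = 0.0931) rests on 1 middle piece and was 0.19 without it (middle replicate 1). In VE pieces titled ant_pharynx (4) against middle (3), 0 of 91 members and 0 of 1555 rows (0%) were called, with 5 members (5.49%) and 4.63% of all rows at an unadjusted p under 0.05. DESeq2 called 2 members there, both lower, of 8 rows called in all (7 lower). Row 6359 of the fourth block had 180.9, 250.8, 295.8 and 327.7 CPM in ant_pharynx, against 232.8, 526.5 and 4708 CPM in middle pieces (log2 fold change −3.06 ± 0.99, SE; edgeR adjusted p = 0.866; −0.57 without middle replicate 1).

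These tests could not show that the members are equal between cells. The median SE of a member's log2 fold change was 0.58 in P1 against AB, 0.70 in P2, 0.75 in EMS, 0.83 in P3, 0.62 and 0.57 along the Comma stage and 0.76 at VE. An interval of 1.96 SE to each side stayed within 1 log2 unit of no change for 3 of 93, 0 of 98, 1 of 98, 0 of 88, 6 of 92, 11 of 92 and 0 of 91 members in the same order. A difference of 2-fold between cells therefore remained possible for nearly every member.

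Stages of the same bin were compared next, with all libraries of a stage as a group. In 4-cell (12 libraries) against 2-cell embryos (14), 0 of 82 members and 0 of 518 rows (0%) were called. There were 11 members (13.4%) at an unadjusted p under 0.05, beside 11.6% of all rows, and DESeq2 called 0 of either. The median log2 fold change of the members was −0.12, against −0.15 over all rows, and the interval stayed within 1 log2 unit for 28 members. Row 11832 of the first block had 0 to 14092 CPM at 4 cells with a median of 333.6 CPM, and 29.4 to 1138 CPM at 2 cells with a median of 135.2 CPM (log2 fold change 2.81 ± 0.84, SE; edgeR adjusted p = 0.219).

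In 13-cell (13 libraries) against 5-cell embryos (7), 0 of 68 members and 0 of 222 rows (0%) were called by edgeR. There were 13 members (19.1%) at an unadjusted p under 0.05, beside 11.7% of all rows. DESeq2 called 4 members (1 higher, 3 lower), which is 5.88% of those tested, beside 12 rows (2 higher, 10 lower), or 5.41%. Row 3625 had 822.6 to 2096 CPM at 13 cells with a median of 1448 CPM, and 1708 to 5339 CPM at 5 cells with a median of 2075 CPM. Of the 13-cell libraries, 9 lay below every 5-cell library. The log2 fold change was −1.16 ± 0.32 (SE; edgeR adjusted p = 0.0969), and DESeq2 called the row (−1.11 ± 0.31, SE; DESeq2 adjusted p = 0.0112).

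In E8 (11 libraries) against E2 (11), 0 of 40 members tested were called by edgeR, beside 9 of all rows tested (7.89%). There were 8 members (20%) at an unadjusted p under 0.05, beside 32.5% of all rows. DESeq2 called 1 member (2.5%), which was lower, beside 23 rows (20.2%). Row 9219 had 1250 to 6829 CPM at E8 with a median of 3515 CPM, and 2464 to 14552 CPM at E2 with a median of 9396 CPM. At E8, 5 libraries lay below every E2 library, and at E2 6 libraries lay above every E8 library. The log2 fold change was −1.02 ± 0.36 (SE; edgeR adjusted p = 0.0638), and DESeq2 called the row (−1.12 ± 0.33, SE; DESeq2 adjusted p = 0.00860). Among the libraries of 50000 counts or more its sign turned, to 0.69 ± 1.38 (SE).

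In Comma (16 libraries) against VE (8), stages taken from the titles, 0 of 92 members were called by edgeR, beside 6 of 812 rows (0.739%). There were 18 members (19.6%) at an unadjusted p under 0.05, beside 14.5% of all rows. DESeq2 called 7 members (7.61%), all higher, beside 41 rows (5.05%; 25 higher, 16 lower). The median log2 fold change was 0.12 over the members and 0.07 over all rows. Row 6359 had 63.6 to 548.4 CPM at Comma with a median of 225.7 CPM, and 180.9 to 4708 CPM at VE with a median of 306.5 CPM. Its log2 fold change was −1.84 ± 0.51 by edgeR (SE; edgeR adjusted p = 0.0736) and −0.12 by DESeq2.

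Across the bins the members were chosen to differ little, and a test of Comma (16) against 2-cell libraries (14) is given as a description of what the rule let through. These stages belong to 2 of the bins that chose the members, so the share of members that passed was set by the choice and nothing is read from it. Of 92 members tested 11 passed, beside 17.4% of all 654 rows. At Comma 10 members were higher, beside 9.94% of the rows, and 1 was lower, beside 7.49% of the rows. Of the 10 higher members 6 belong to the first block (rows 11100, 13919, 14451, 11832, 5592 and 11831). Row 11100 had 49.4 to 7322 CPM at Comma with a median of 163.1 CPM, and 18.6 to 812.9 CPM at 2 cells with a median of 100.5 CPM (log2 fold change 2.87 ± 0.78, SE). Row 15847 had 67.9 to 2500 CPM at Comma with a median of 186.1 CPM, and 66.4 to 282.5 CPM at 2 cells with a median of 135.7 CPM (log2 fold change 1.75 ± 0.47, SE). In both rows the stage medians lay close together and 5 Comma libraries exceeded all 2-cell libraries. Row 2687, the lower one, had 52.9 to 1214 CPM at Comma with a median of 238.0 CPM, and 132.8 to 5423 CPM at 2 cells with a median of 431.9 CPM (log2 fold change −1.65 ± 0.56, SE).

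The span was also measured in libraries that had not entered it. Libraries under 10000 counts were summed within each bin: 5 early ones (40729 counts), 20 at 5 to 16 cells (147302 counts), 6 at E2 to E8 (36704 counts) and 3 late ones (18852 counts). The members held 8.19%, 9.03%, 9.16% and 7.86% of these sums. Their spans had a median of 1.22, and those of the changing rows a median of 1.55. A span under 0.5 was found for 6 members (6%) and for 15 changing rows (7.81%), and one under 1 for 38 members (38%) and 50 changing rows (26.04%). The sums are shallow, the late one most of all. No test was made of these differences, and they are not a check of single rows.

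In these sums a span under 0.5 was no more frequent in members (6%) than in changing rows (7.81%). The members given here are examples chosen after their values were seen. Row 9487 had 9846, 10414, 12996 and 9442 CPM in the 4 sums, early to late, a span of 0.46. Row 16051 had the smallest span there, 0.21, with 417.4, 475.2, 490.4 and 424.4 CPM from 17, 70, 18 and 8 counts. Row 11831 had 122.8, 54.3, 1989 and 53.04 CPM, from 5, 8, 73 and 1 counts, and was highest in the sum of E2 to E8. In the 4 libraries titled E, 51 members (51%) and 60.9% of the changing rows lay within 0.5 log2 of the average of their 4 bin means, and the median difference of the members was −0.16.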

How the data were processed

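RNA was counted in single blastomeres and pieces of embryos with CEL-Seq2, per the labels' protocols. The authors deposited whole-number counts per row, not normalized, and the submitters' processing notes name CASAVA 1.8, Bowtie2 2.1.0 and HTSeq 0.5.4p3. How these tools were set is not given in the sources used here. A deposited annotation of transcript contigs was not used, since nothing pairs it with the rows. Columns were matched to samples through the sample number in each description, with 0 left unmatched. Where the title and the stage label disagreed (13 libraries titled Comma or VE with the label gastrula, 1 titled E4 with the label E2) the title was used.

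The members and the lists were chosen with earlier results of these data known. CPM was computed from library totals. Tests used edgeR 4.0.16 in R 4.3.3 (limma 3.58.1), with TMM, filterByExpr (minimum count 10, minimum total 15) and robust quasi-likelihood dispersions, fitted on the whole table and adjusted over all rows tested. The cells or pieces of the 2-cell, 3-cell and Comma stages shared 1 fit per stage. The 4-cell fit held AB, C and P3 and left out EMS and p4, and the VE fit left out the posterior piece. Comparisons of whole stages included these libraries. Rows that fail the filter are not tested, so counts are given over the members that passed. SEs are those that give the test's F. DESeq2 1.42.0 was an alternative, as were no filter, minimum totals of 50000 and 5000, thinning to 10000 counts, pseudocounts of 10 and 200, each library left out and the replicate number as a block. DESeq2 gave no adjusted p to 33 of the members tested in 13-cell against 5-cell, to 21 at VE and to at most 7 elsewhere, and these count as neither called nor lost. The script was checked on simulated counts.

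The rows named were the 10 highest in mean CPM, the 3 with the smallest and the 3 with the largest SD, the rows next to the limits, the member with the smallest p of each comparison (up to 2 in each direction where any passed), and those that reach the highest count. Rows named for their block, stage range or single high library, row 9219 at the 2-cell stage and the rows of the libraries under 10000 counts were chosen after their values were seen. Marker lists could not be used without gene names. Counts limit precision: a row at 345.08 CPM, the lowest member, gives few counts in a library of 10000.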

Additional observations from a re-analysis of the deposited data

Results flagged for a closer look

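Within groups of 4 to 10 libraries, the members' share of counts, the share of the first block and the levels of the members with the smallest p were searched. In all, 36 sets of values were searched for a library far from the others of its group. Dixon's criterion was used, which about 1 of 20 sets of independent normal values would meet. Such a library was found 13 times. That rate is no measure for these sets: shares and CPM have long upper tails, the sets overlap, and the rows and the block were chosen on the same values. The libraries are listed as a description.

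The first block of 9 rows held 8.94% of counts in 3-cell AB replicate 2 (others 0.0668% to 0.373%), 5.85% in Comma anterior replicate 5 (others 0.0939% to 1.08%) and 1.27% in 4-cell P3 replicate 3 (others 0.0956% to 0.127%). It held 0.787% in Comma posterior replicate 3 (others 0.0543% to 0.0818%), 0.558% in 2-cell AB replicate 1 (others 0.0669% to 0.137%) and 0.258% in VE ant_pharynx replicate 4 (others 0.0803% to 0.0923%). All 100 members held 18.6% of counts in 3-cell AB replicate 2 (others 5.35% to 9.35%) and 17.5% in 3-cell P2 replicate 1 (others 7.53% to 9.59%).

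Row 14382 stood at 23869 CPM in 3-cell P2 replicate 1 (others 0 to 68.5 CPM) and at 690.8 CPM in 3-cell EMS replicate 1 (others 30.3 to 104.7 CPM). Row 11831 stood at 13647 CPM in 3-cell AB replicate 2 (others 14.3 to 872.6 CPM). Row 16103 stood at 12431 CPM in Comma posterior replicate 5 (others 1648 to 4042 CPM), and row 15282 at 7151 CPM in Comma middle replicate 1 (others 85.6 to 554.0 CPM).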

How the results depend on the processing

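Which rows are members depended on the settings: of the 100 rows, 61 were chosen again with a pseudocount of 10, 56 with 200, 25 with a minimum total of 50000 counts and 60 with 5000, and 71 to 96 under the other 7 settings. Of the alternative fits within the bins, 130 called no member and 14 called at least 1. No member was called in the 7 fits with the replicate block (0 in each). Same-numbered P1 and AB libraries of the 2-cell stage had correlations of −0.06, 0.07, 0.30, 0.35, 0.52, 0.56 and 0.67 of their deviations. Differently numbered ones had −0.68 to 0.74. In each of the 7 comparisons at least 1 same-numbered pair lay under 0.1, which cannot settle whether the numbers pair the libraries. No label says that a number marks an embryo, so the main fits left the numbers out, and a pairing by embryo remains possible. Without the filter, members called numbered 1 (1%, beside 0.370% of all rows) in Comma anterior against posterior, 2 (2%, 1.88%) in Comma middle against both ends, 2 (2%, 0.490%) at VE, 2 (2%, 1.18%) in 13-cell against 5-cell, 8 (8%, 1.94%) in E8 against E2 and 2 (2%, 0.612%) in Comma against VE. DESeq2 called 2 (2.20%, beside 0.514% of all rows) at VE, 4 (5.88%, 5.41%) in 13-cell against 5-cell, 1 (2.5%, 20.2%) in E8 against E2, 7 (7.61%, 5.05%) in Comma against VE and 18 (19.6%, 26.3%) in Comma against 2-cell. At a minimum of 50000 counts 3 (3.06%, beside 0.617% of all rows) were called in 4-cell against 2-cell and 26 (27.4%, 32.1%) in Comma against 2-cell; P3 against AB could not be fitted. Thinned to 10000 counts, 0 were called in Comma against 2-cell. Leaving out each library in turn gave 0 to 1 calls in Comma middle against both ends (row 15282, without middle replicate 2, 4 or 5) and none in the other comparisons of cells or pieces. Row 14382 in P2 against AB reversed to −1.04 at the 50000 minimum and to −1.26 without P2 replicate 1 (6.58 at most with another library left out), and row 9219 in E8 against E2 to 0.69 at the 50000 minimum. The causes were not tested.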
